A study of Mus musculus with 12 samples.

Results

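The genes examined were 10 glial chemokines: Ccl2, Ccl3, Ccl4, Ccl5, Ccl7, Ccl12, Cxcl1, Cxcl2, Cxcl10 and Cxcl16. They were taken by symbol, and all of them were found among the 40853 gene symbols of the 2 count tables. RNA had been sequenced from microglia, the resident macrophages of the brain, and from astrocytes, both sorted by flow cytometry from whole brain of mice aged 8 to 9 weeks. Mice labelled KO lacked Kpna4 and mice labelled WT were wild type. Kpna4 encodes a nuclear import receptor of the importin alpha family. Every mouse had received 1 mg/kg lipopolysaccharide (LPS), a component of the bacterial outer membrane, into the peritoneal cavity 20 h earlier. Cell type and genotype gave 4 groups of 3 libraries: WT microglia, KO microglia, WT astrocytes and KO astrocytes. The libraries came from 6 mice, 3 per genotype by the animal numbers in the labels, and both cell types were sorted from every mouse. Mice without LPS were not analysed here, so all 4 groups describe cells after LPS and none gives a change with LPS. The labels used here do not give the deleted part of Kpna4 or the cells from which it was deleted.

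Chemokines are small secreted proteins that direct the movement of leukocytes through G protein-coupled receptors. LPS is sensed by Tlr4 with the co-receptors Cd14 and Ly96, and the signal reaches chemokine genes through NF-κB and AP-1 and, for genes such as Cxcl10, through interferon regulatory factors and interferon signalling. In the brain, microglia are known for CC chemokines that attract monocytes and other macrophages, though not as their only source. Both microglia and astrocytes can make Cxcl10.

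Of the 10 members, 5 had an entry in the RefSeq promoter table used here (build GRCm38.p6), and the promoters of all 5 are shown. Their levels did not decide which are shown. Of the 10 members, Ccl3 and Ccl12 had the highest per-length means over both genotypes in each cell type, and Cxcl1 and Cxcl2 the lowest. Cxcl10 had the smallest difference between cell types among the members called. Each sequence below is the 250 bases before the annotated start, 5′ to 3′ on the strand of the gene, and the capitals mark motif matches.
Ccl3, chr11:83649379-83649628, strand minus: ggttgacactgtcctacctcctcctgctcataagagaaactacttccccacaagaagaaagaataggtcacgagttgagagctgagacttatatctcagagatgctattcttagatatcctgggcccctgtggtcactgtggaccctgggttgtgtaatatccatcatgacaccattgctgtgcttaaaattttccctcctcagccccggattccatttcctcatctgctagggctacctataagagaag
Ccl12, chr11:82101595-82101844, strand plus: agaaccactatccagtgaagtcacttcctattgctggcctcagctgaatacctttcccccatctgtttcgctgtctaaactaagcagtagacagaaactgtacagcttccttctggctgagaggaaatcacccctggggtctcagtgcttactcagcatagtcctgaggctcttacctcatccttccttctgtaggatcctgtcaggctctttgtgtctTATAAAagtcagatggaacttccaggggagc
Cxcl1, chr5:90890995-90891244, strand plus: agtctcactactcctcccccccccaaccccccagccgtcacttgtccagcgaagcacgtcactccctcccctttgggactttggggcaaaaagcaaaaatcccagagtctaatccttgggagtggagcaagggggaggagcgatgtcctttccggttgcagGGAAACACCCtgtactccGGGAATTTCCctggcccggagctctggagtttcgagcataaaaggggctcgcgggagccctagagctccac
Cxcl2, chr5:90903649-90903898, strand plus: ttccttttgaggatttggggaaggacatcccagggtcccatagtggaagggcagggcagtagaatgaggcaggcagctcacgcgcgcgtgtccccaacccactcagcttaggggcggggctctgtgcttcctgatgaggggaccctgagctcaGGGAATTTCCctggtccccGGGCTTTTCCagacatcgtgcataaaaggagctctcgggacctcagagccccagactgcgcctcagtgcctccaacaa
Cxcl10, chr5:92348890-92349139, strand minus: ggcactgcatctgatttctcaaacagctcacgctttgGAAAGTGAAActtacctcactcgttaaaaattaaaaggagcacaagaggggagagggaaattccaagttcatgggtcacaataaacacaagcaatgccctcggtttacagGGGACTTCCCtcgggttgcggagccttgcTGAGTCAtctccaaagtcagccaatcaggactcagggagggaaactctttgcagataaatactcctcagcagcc
The motifs searched on both strands were an NF-κB type (GGG, any 2 bases, TT, any base, CC), an interferon-stimulated response element type (GAAA, any 2 bases, GAAA), an AP-1 type (TGANTCA) and a TATA box type (TATAAA). The patterns were chosen with these promoter sequences in view, so the shares of all promoters that follow are a description and do not make the matches unusual. The letters occurred in 4.11%, 2.98%, 6.75% and 12.4% of the 32851 promoters of the same length, in that order. Cxcl2 held the NF-κB type letters at 97 to 88 and at 78 to 69 bases before its start. Cxcl1 held them at 71 to 62 bases and, on the other strand, at 89 to 80 bases before its start. The Cxcl10 window held letters of 3 types: the interferon type at 213 to 204 bases, the NF-κB type at 103 to 94 bases and the AP-1 type at 74 to 68 bases before the start. In Ccl12 the TATA box type alone was found, at 31 to 26 bases before the start, and the Ccl3 window held none of the 4. No match overlapped another, and a match is a description of letters only.

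Library totals were 10.3 M to 14.5 M estimated counts for the microglia and 10.7 M to 15.6 M for the astrocyte libraries, and levels are given as CPM, counts scaled to a common library total of 1000000. The floor of 3 counts lay at 0.193 to 0.291 CPM. The 8 microglia markers, P2ry12 and Tmem119 among them, summed to 10435 to 13198 CPM in the microglia libraries and 176 to 459 CPM in the astrocyte libraries. The 8 astrocyte markers summed to 14759 to 19824 CPM in astrocytes and 318 to 698 CPM in microglia, so each sort carried its labelled cell type and a small share of the other. Markers of further cell types were present. Oligodendrocyte markers summed to 214 to 1147 CPM in microglia and 709.8 to 2849 CPM in astrocytes, and ependymal and choroid plexus markers to 344 to 2127 CPM and 650.2 to 1209 CPM. Border macrophage markers summed to 175 to 385 CPM in microglia, and in astrocytes pericyte and smooth muscle markers reached 433 CPM and fibroblast markers 140 CPM. Their part in the chemokine levels was not tested. Abundant non-coding RNAs took 11.8% to 15.4% of the counts in microglia and 26.2% to 39.5% in astrocytes, the highest share being in astrocytes KO replicate 2. Kpna4 itself averaged 84.4 ± 14.8 CPM in WT microglia against 69.0 ± 9.41 CPM in KO microglia, and 49.6 ± 8.81 CPM in WT astrocytes against 64.4 ± 18.6 CPM in KO astrocytes (SD, n = 3). It was called in neither cell type (edgeR adjusted p = 0.778 and 0.999). Without the deleted part this transcript level does not check the labels, so WT and KO below mean libraries labelled so.

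The CC chemokines Ccl3, Ccl12 and Ccl4 had the highest mean CPM in microglia over both genotypes, followed by Cxcl16 and Ccl2. Ccl3 (MIP-1α) and Ccl4 (MIP-1β) attract macrophages and T cells, and Ccl3 acts through Ccr1 among other receptors. Ccl3 was at 378, 390 and 266 CPM in the WT and 669, 262 and 379 CPM in the KO microglia libraries (replicates 1 to 3), against 25.7, 9.51 and 4.24 CPM in WT and 8.16, 12.8 and 5.14 CPM in KO astrocytes. Microglia KO replicate 1 was the highest library and every microglia library lay above every astrocyte library. Ccl4 was at 154, 119 and 101 CPM in WT and 191, 104 and 163 CPM in KO microglia, and at 9.78, 2.52 and 1.64 CPM in WT and 2.13, 0.745 and 2.95 CPM in KO astrocytes. Its highest libraries were the same as for Ccl3 in each cell type: KO replicate 1 in microglia and WT replicate 1 in astrocytes.

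Ccl2 (MCP-1), Ccl7 (MCP-3) and Ccl12 (MCP-5) attract monocytes through Ccr2. Ccl2 was at 89.2, 90.5 and 91.4 CPM in WT and 80.0, 74.4 and 99.2 CPM in KO microglia, the narrowest spread of any member relative to its mean (90.4 ± 1.13 CPM in WT, SD, n = 3). In astrocytes it was at 2.95, 0 and 3.69 CPM in WT and 0.255, 1.40 and 0.642 CPM in KO. The cell types were separate and the genotypes overlapped in both. Ccl12 was at 96.6, 128 and 192 CPM in WT and 146, 132 and 247 CPM in KO microglia, and at 4.75, 0.813 and 2.73 CPM in WT and 6.46, 4.84 and 1.67 CPM in KO astrocytes. Replicate 3 was the highest library of each genotype in microglia for Ccl2 and Ccl12. Ccl7 was far lower, at 7.31, 7.81 and 19.9 CPM in WT and 3.29, 5.02 and 12.2 CPM in KO microglia. In astrocytes Ccl7 was at 1.58, 1.06 and 0.615 CPM in WT and 0, 0 and 0.257 CPM in KO.

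Ccl5 (RANTES), a ligand of Ccr1 and Ccr3 that is also made by T and NK cells, was at 7.16, 9.33 and 16.4 CPM in WT and 16.1, 25.3 and 32.5 CPM in KO microglia. A single pair of libraries, WT replicate 3 and KO replicate 1, kept the genotypes from separating. In astrocytes Ccl5 was at 1.22, 0.325 and 2.32 CPM in WT and 0.170, 2.33 and 3.02 CPM in KO. The T and NK cell markers Cd3e, Trbc2 and Nkg7 had 0 counts in all 12 libraries, and the 6 markers of that list summed to 0.0761 to 1.45 CPM in microglia. Gzma had 0, 0 and 1 counts in WT and 15, 3 and 2 counts in KO microglia. Klrb1c had 4, 1 and 0 counts in WT and 0, 0 and 0 in KO microglia, and Cd3d had 2, 0 and 0 against 0, 0 and 1. The part of such cells in the Ccl5 levels was not tested.

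Cxcl10 (IP-10), the interferon-inducible ligand of Cxcr3, was at 53.5, 25.7 and 32.6 CPM in WT and 26.8, 20.6 and 30.1 CPM in KO microglia. In astrocytes it was at 6.83, 9.92 and 6.77 CPM in WT and 1.96, 5.30 and 2.63 CPM in KO, from 95, 122 and 99 counts and 23, 57 and 41 counts. Each WT astrocyte library lay above each KO astrocyte library, while the microglia genotypes overlapped. Cxcl16, a membrane-anchored ligand of Cxcr6 that is shed by Adam10, was at 247, 108 and 125 CPM in WT and 89.1, 92.7 and 136 CPM in KO microglia. Its astrocyte libraries were at 10.5, 0 and 4.24 CPM in WT and 3.91, 0.279 and 5.14 CPM in KO. WT replicate 1 was the highest microglia library for each of Cxcl2, Cxcl10 and Cxcl16.

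The neutrophil attractants Cxcl1 (KC) and Cxcl2 (MIP-2), which act through Cxcr2, were the members with the lowest levels per kilobase, and Cxcl1 was near the floor. Cxcl1 had 5, 0 and 16 counts in WT and 2, 6 and 1 counts in KO microglia, and 12 counts in astrocytes KO replicate 3 with 0 in the other 5 astrocyte libraries. With so few counts Cxcl1 passed the filter in no comparison, and an order between its groups was not detectable at this depth. Cxcl2 was at 7.61, 3.14 and 1.37 CPM in WT and 3.97, 0.0836 and 3.72 CPM in KO microglia, and at 1.15, 0.732 and 0.0684 CPM in WT and 1.19, 0 and 0.449 CPM in KO astrocytes. Each gap between neighbouring group means of Cxcl2 was smaller than the larger SD of the pair.

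**Figure D1:**
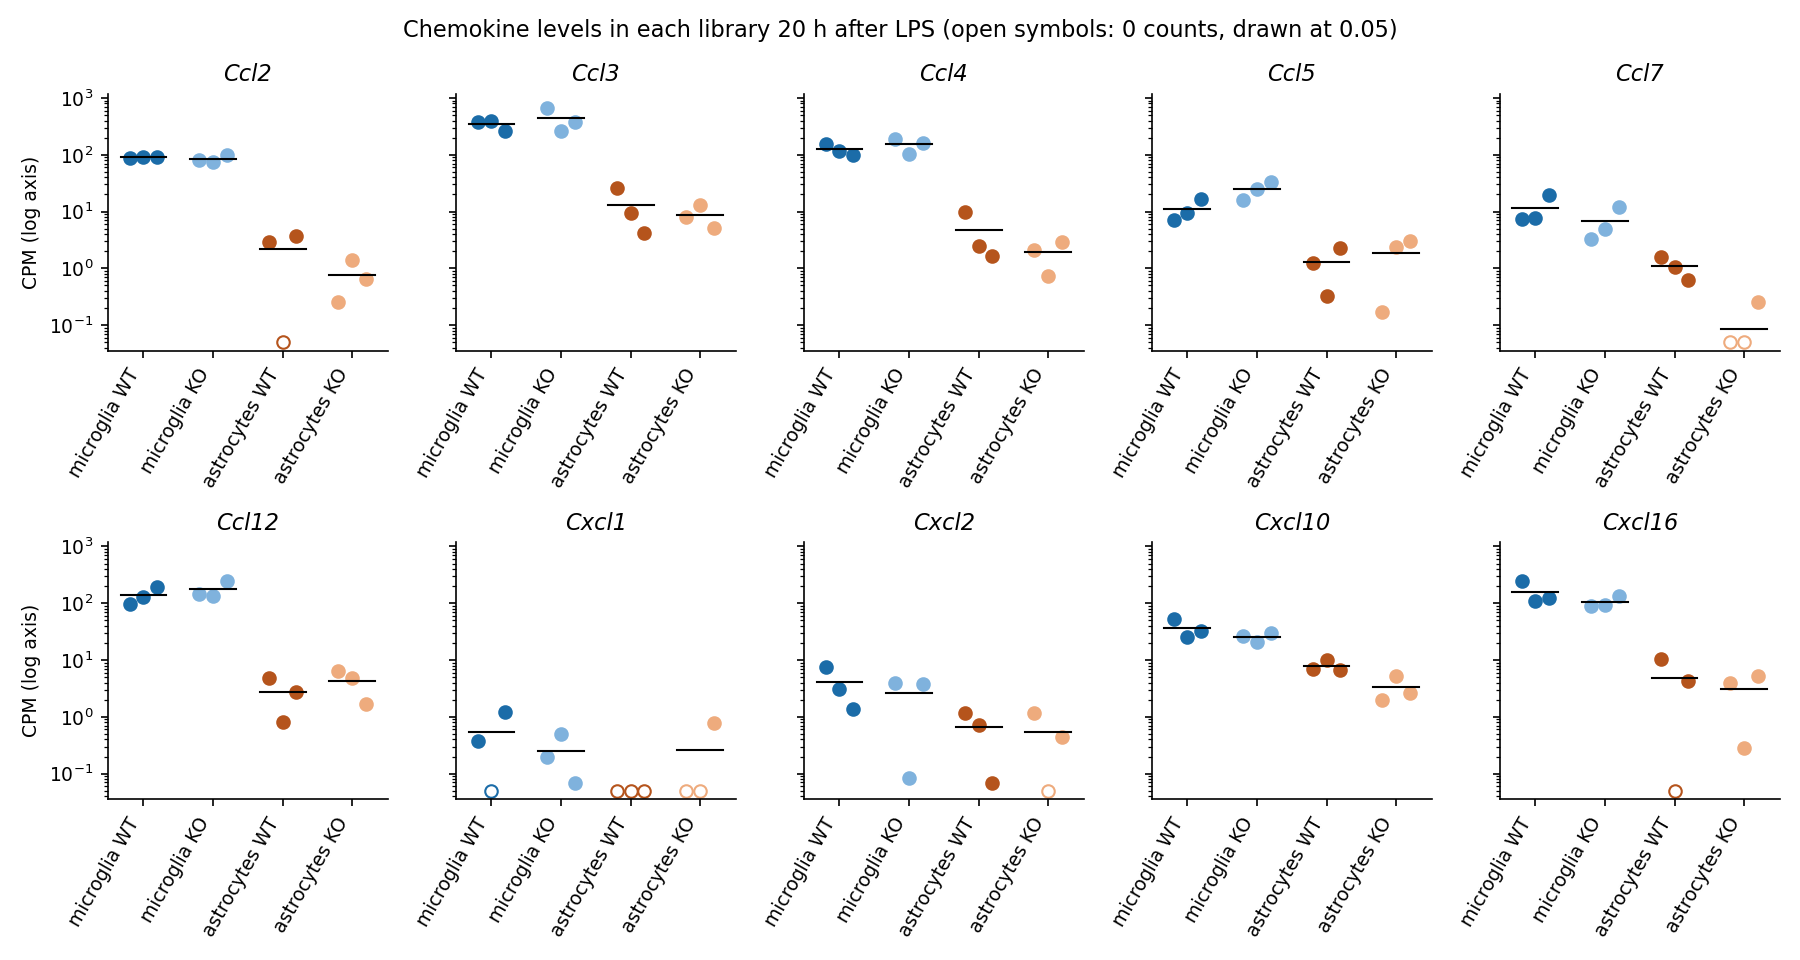
CPM of the 10 chemokines in each of the 12 libraries (log axis), with a line at each group mean; open symbols are libraries with 0 counts. The microglia and astrocyte libraries are separate for 8 of the genes and overlap for Cxcl1 and Cxcl2.

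Per kilobase of annotated exon, which allows levels of different genes to be compared, Ccl3 (510 CPM per kb), Ccl12 (292) and Ccl4 (209.9) led in microglia. Ccl2 (76.9), Cxcl16 (44.0), Ccl5 (18.5), Cxcl10 (14.0) and Ccl7 (11.6) followed, and Cxcl2 (1.60) and Cxcl1 (0.210) were the lowest, all as means of 6 libraries in CPM per kb. Astrocytes began with the same 3 genes, Ccl3 at 14.3, Ccl12 at 6.60 and Ccl4 at 4.99 CPM per kb. Cxcl10 came next with 2.47 CPM per kb, which put it at rank 4 in astrocytes and rank 7 in microglia over both genotypes. Within genotypes some ranks differed: in KO astrocytes Cxcl10 (1.46 CPM per kb) lay below Ccl5 (1.91), in WT microglia it (16.5) lay above Ccl7 (14.6) and Ccl5 (11.4), and in WT astrocytes Ccl4 (7.04) lay above Ccl12 (5.15). The other astrocyte levels were 1.63 CPM per kb for Ccl5, 1.33 for Cxcl16, 1.31 for Ccl2, 0.731 for Ccl7, 0.289 for Cxcl2 and 0.0685 for Cxcl1. Exon lengths came from another annotation (GENCODE M21, GRCm38) than the authors' counts, which limits these ranks.

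Microglia against astrocytes was the comparison in which the chemokines differed. Of the 10 members, 9 passed the filter on low counts and 8 of these were called, all higher in microglia (edgeR quasi-likelihood test, adjusted p under 0.05). Among all 17294 genes tested, 28.2% were called higher in microglia and 64.6% in either direction. The median log2 difference of the 9 members was 4.82 and that of all genes was -0.19. Scaling by library totals alone put the median of all genes at 0.09 and called 5809 genes higher and 5520 lower in microglia, against 4877 and 6289, and the same 8 members were called. The 6 microglia libraries lay above the 6 astrocyte libraries without overlap in these 8 members, as they did in 24.9% of all genes. Fewer cells that make a transcript and less of it per cell cannot be told apart in such bulk samples.

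Ccl2 had the largest difference, a log2 value of 5.78 (SE 0.55, edgeR adjusted p = 3.43e-07), which is 55.0-fold. Ccl4 and Ccl12 followed with log2 differences of 5.24 (SE 0.43, edgeR adjusted p = 5.97e-08) and 5.21 (SE 0.41, edgeR adjusted p = 4.73e-08). Ccl3 differed by 4.86 (SE 0.45, edgeR adjusted p = 2.26e-07) and Cxcl16 by 4.82 (SE 0.66, edgeR adjusted p = 1.58e-05) on the log2 scale. These 5 genes, which include the most abundant CC chemokines, were 28.2-fold to 55.0-fold higher in microglia. Ccl7 was higher by 4.45 (SE 0.71, edgeR adjusted p = 6.57e-05) but passed the filter through its microglia counts alone, so a difference was built into its selection. The remaining called members, Ccl5 at 3.11 (SE 0.57, edgeR adjusted p = 2.56e-04) and Cxcl10 at 2.30 (SE 0.34, edgeR adjusted p = 3.57e-05), were 8.61-fold and 4.92-fold higher. Cxcl2, which also passed through microglia alone, had a log2 difference of 2.21 (SE 1.04, edgeR adjusted p = 0.0750) and was not called. It was called with DESeq2 (adjusted p = 0.0366), with the animal as a block (0.0468) and without KO replicate 2 (0.0269). Within animals, microglia had the higher CPM in 6 of 6 animals for every member but Cxcl1, for which 4 of 6 did. Some of these orders lay under the floor of 3 counts. Cxcl2 in KO animal 2 had 1 count in microglia against 0, and Cxcl1 in KO animal 1 had 2 against 0. The share of all genes with the same order in 6 of 6 animals was not computed.

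**Figure D2:**
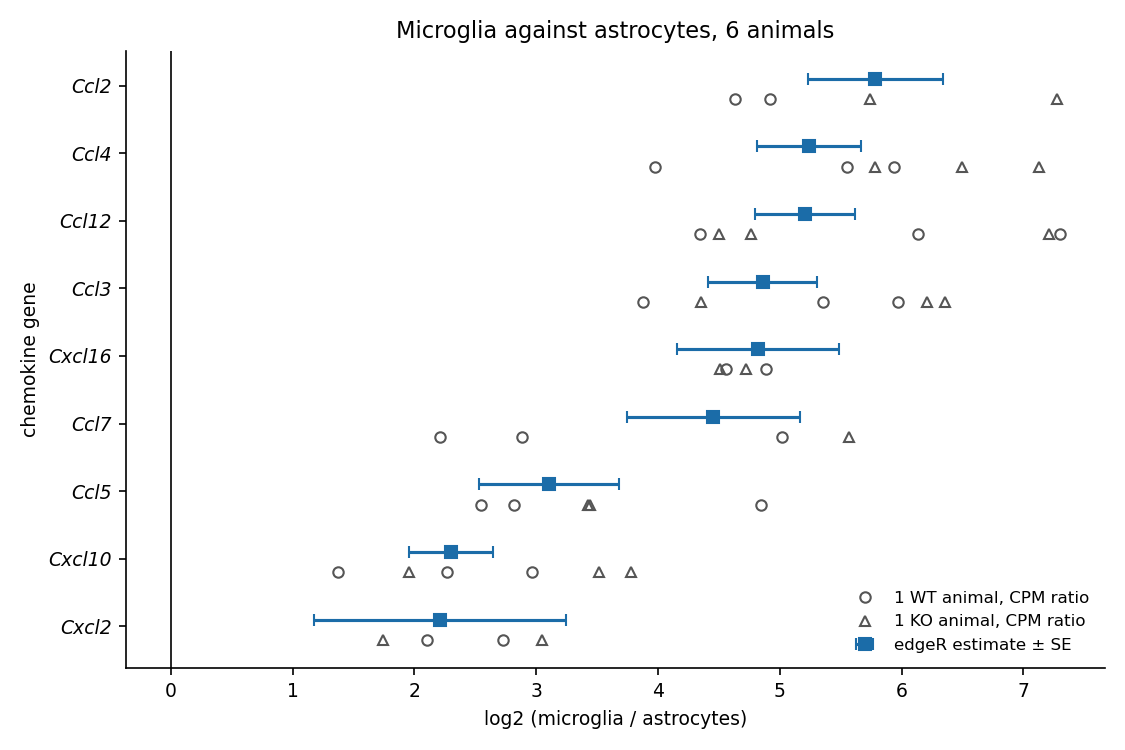
Log2 ratio of microglia to astrocytes for the 9 chemokines tested. Squares are edgeR estimates with their SE. Circles and triangles are the CPM ratios within single WT and KO animals with more than 3 counts in both cell types, which all lie above 0. Animals with fewer counts are not drawn, such as KO animal 1 for Ccl2 (826 counts in microglia and 3 in astrocytes). Ccl2 has the largest estimate (5.78) and Cxcl2 the smallest (2.21).

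The astrocyte level as a percentage of the microglia level in the same animal was set beside that of the 8 microglia markers, since the astrocyte libraries held microglia transcripts. All 8 markers had counts in both astrocyte groups, and their sum in astrocytes was 1.63% to 4.12% of that in microglia, with a median of 2.52% over 6 animals. For Ccl2, Ccl3, Ccl4, Ccl12 and Cxcl16 the median percentages were 1.26%, 2.02%, 1.72%, 2.55% and 3.58%. In none of the 6 animals did one of these 5 genes reach 2 times that animal's percentage for the sum of 8 markers. That sum leans on Sall1, which was at 71 to 113 CPM in astrocytes against 757 to 1110 CPM in microglia. In the astrocytes of WT animal 2, Sall1 gave 71 of the 176 CPM and Siglech 0.65 CPM. A list without Sall1 would give lower marker percentages, and the chemokines were not set beside such a list. Ccl5 had a median of 9.25% (1.06% to 17.1%) and was above the marker percentage in 5 of 6 animals, KO animal 1 being the exception. Cxcl10 was above it in 6 of 6, at 12.8%, 38.7% and 20.7% in the WT and 7.28%, 25.8% and 8.75% in the KO animals, which is 2.51 to 23.7 times the marker percentage. Ccl7 ranged from 0% to 21.6%, and Cxcl2 from 4.99% to 30.0% in the 5 animals where it could be formed, both on few astrocyte counts. These percentages are a description without a test, and the part of microglia transcripts in the astrocyte levels was not tested.

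**Figure D3:**
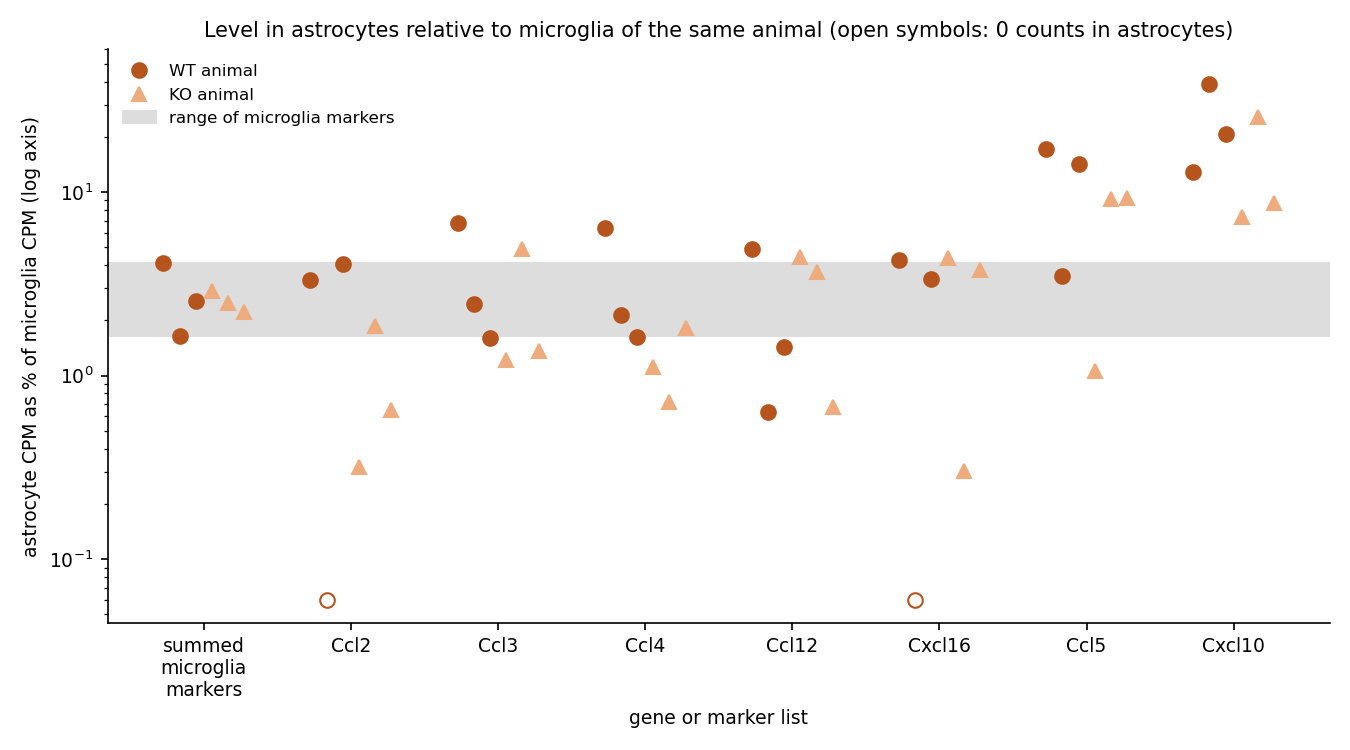
Astrocyte CPM as a percentage of microglia CPM in the same animal (log axis) for the summed microglia markers and 7 chemokines; each symbol is 1 animal, open symbols mark 0 counts in astrocytes, and the grey band is the marker range of 1.63% to 4.12%. Cxcl10 lies above the band in all 6 animals.

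Astrocyte WT replicate 1, which had the highest microglia marker sum of the astrocyte libraries (459 CPM), was also the highest astrocyte library for Ccl3, Ccl4, Ccl7 and Cxcl16. Astrocyte WT replicate 2, with the lowest marker sum (176 CPM), was the lowest for Ccl2, Ccl12 and Cxcl16 and the highest for Cxcl10. Other libraries did not follow the order of the sums. Astrocyte WT replicate 3, with the next highest sum (331 CPM), was the lowest for Ccl3 and the highest for Ccl2. Astrocyte KO replicate 1 (303 CPM) was the highest for Ccl12 and Cxcl2. A relation between marker sums and chemokine levels was not tested. In microglia no library was the highest throughout: KO replicate 3 led for Ccl2, Ccl5 and Ccl12, KO replicate 1 for Ccl3 and Ccl4, and WT replicate 3 for Ccl7 and Cxcl1. KO replicate 2 was the lowest microglia library for Ccl2, Ccl3, Cxcl2 and Cxcl10.

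KO against WT microglia addressed whether chemokine levels after LPS differed with the Kpna4 genotype. No chemokine was called, and 0% of all 14191 genes tested were. Of the 9 members tested, 4 had positive and 5 negative log2 differences, with a median of -0.12 against -0.0013 for all genes. At an unadjusted p under 0.05 stood 1 member, Ccl5, where 1053 genes (7.42%) did so in all. No member separated the genotypes without overlap, against 13.1% of all genes. DESeq2 and limma voom also called 0 of the members.

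Ccl5 averaged 10.9 ± 4.81 CPM in WT microglia against 24.6 ± 8.23 CPM in KO microglia (SD, n = 3). The log2 difference was 1.15 (SE 0.36, 95% interval 0.38 to 1.92, edgeR adjusted p = 0.551). The gap of its means exceeded the larger SD. Its log2 difference was 0.92 to 1.54 and its adjusted p 0.0914 to 0.999 over 15 alternatives. Cxcl16 differed by -0.63 (SE 0.30, 95% interval -1.27 to 0.0040, edgeR adjusted p = 0.676) and Cxcl10 by -0.56 (SE 0.29, 95% interval -1.19 to 0.07, edgeR adjusted p = 0.721). Without WT replicate 1, the highest library of both genes, the differences were -0.16 for Cxcl16 and -0.19 for Cxcl10. The monocyte attractants had log2 differences of -0.12 (95% interval -0.53 to 0.29) for Ccl2, 0.31 (-0.26 to 0.89) for Ccl12 and -0.78 (-1.91 to 0.35) for Ccl7. Single libraries moved these values: Ccl12 was at 0.01 without KO replicate 3, and Ccl7 at -0.18 without WT replicate 3 and -1.47 without KO replicate 3. For Ccl3 and Ccl4 the differences were 0.32 (-0.32 to 0.95) and 0.27 (-0.27 to 0.80), and the sign for Ccl3 turned without KO replicate 1, at -0.12. Cxcl2 had -0.69 with an interval of -2.78 to 1.41. The intervals of Ccl2, Ccl3, Ccl4 and Ccl12 leave room for less than a doubling either way, and that of Cxcl2 leaves room for several-fold changes.

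In astrocytes 7 members passed the filter and Ccl7, Cxcl1 and Cxcl2 did not. None of the 7 was called, as was the case for 0% of all 15755 genes, and 0 stood at an unadjusted p under 0.05, against 2.37% of all genes. The log2 differences were negative in 5 and positive in 2 of the 7, with a median of -0.62 against -0.0068 for all genes. Scaling by library totals alone moved the median of all genes to -0.11. Cxcl10 was the member whose libraries did not overlap among those tested, with lower values in KO, as in 5.74% of all genes. It averaged 7.84 ± 1.80 CPM in WT against 3.30 ± 1.77 CPM in KO libraries (SD, n = 3). The log2 difference was -1.07 (SE 0.64, 95% interval -2.47 to 0.33, edgeR adjusted p = 0.999). Leaving out 1 library gave -1.78 without KO replicate 2, which held the most non-coding RNA, to -0.75 without KO replicate 1. The other 6 had log2 differences of -1.27 for Ccl2, -1.21 for Ccl4, -0.62 for Cxcl16, -0.44 for Ccl3, 0.71 for Ccl5 and 0.79 for Ccl12, with SEs of 0.64 to 1.54 and edgeR adjusted p = 0.999 each. Without WT replicate 1 the difference was 0.49 for Ccl3, 0.66 for Cxcl16 and -0.05 for Ccl4. For Ccl2 it ranged from -2.23 without KO replicate 2 to -0.75 without WT replicate 3. Ccl7, which was not tested, averaged 1.09 ± 0.484 CPM in WT against 0.0856 ± 0.148 CPM in KO libraries without overlap, the KO value resting on 1 library with a count.

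**Figure D4:**
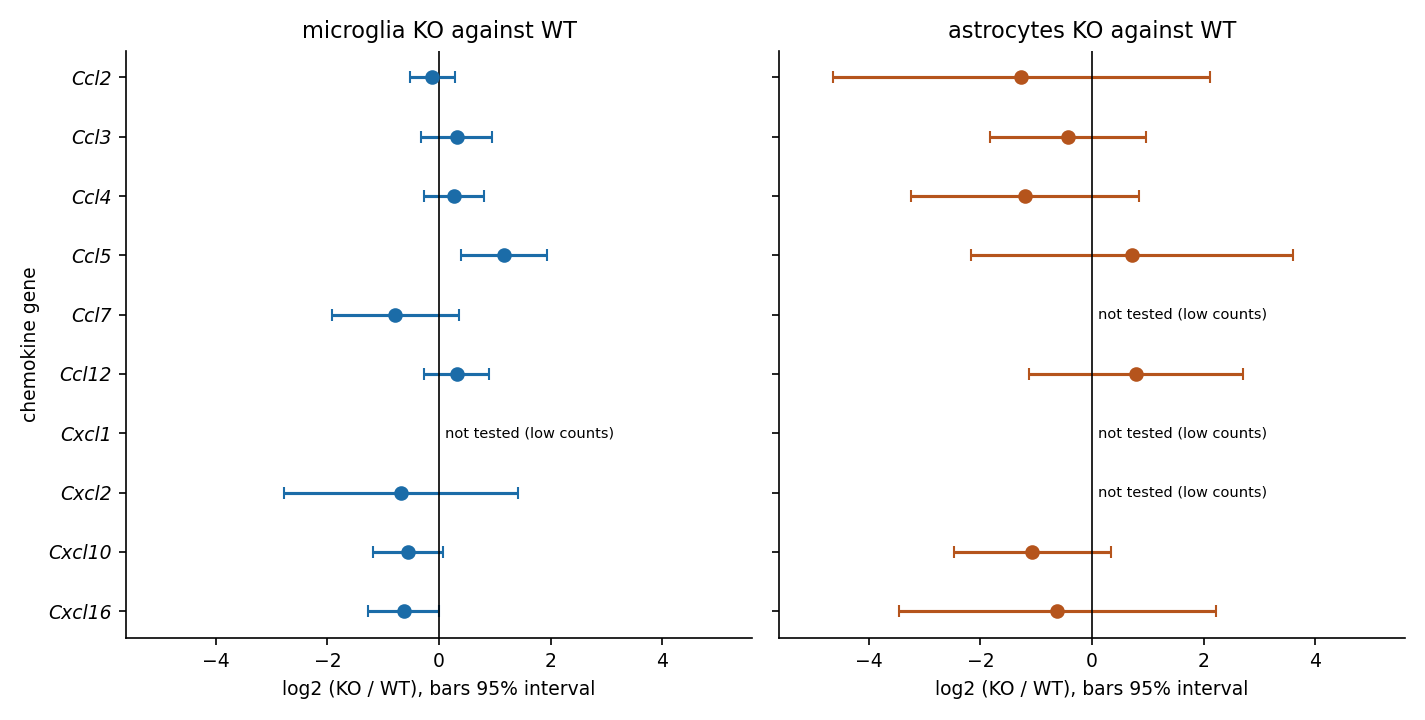
Log2 difference of KO against WT for the chemokines in microglia (left) and astrocytes (right) with 95% intervals from edgeR. The Ccl5 interval in microglia (0.38 to 1.92) lies above 0 before adjustment, every astrocyte interval spans 0, and genes under the count filter are marked.

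The summed monocyte list did not overlap between genotypes in either cell type. Its 5 genes summed to 128 to 245 CPM in WT and 79.3 to 127 CPM in KO microglia, and to 101 to 108 CPM in WT and 63.8 to 77.2 CPM in KO astrocytes. Most of this sum was Fn1, which other cell types also make, at 123 to 235 CPM in WT and 76.9 to 123 CPM in KO microglia. The more specific monocyte genes Ly6c2, Plac8 and Chil3 stayed at 0 to 2.81 CPM. The part of this list in the chemokine values was not tested. The lists of microglia, astrocyte, border macrophage, neutrophil, T and NK cell markers overlapped between genotypes in both cell types.

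A test of the difference between the genotype effects of the cell types called 0 of the 9 members and 0% of 17294 genes, with 6.37% of all genes and 0 members at an unadjusted p under 0.05. The microglia effect minus the astrocyte effect ranged from -0.54 for Cxcl2 to 2.44 for Ccl7 on the log2 scale (SE 1.32, 95% interval -0.38 to 5.26, edgeR adjusted p = 0.847). For Cxcl10 it was 0.40 (SE 0.66, 95% interval -1.02 to 1.81), and for Ccl5 0.37 (SE 1.09). A genotype effect on these genes that differs between the cell types was not detectable here, and the wide intervals do not show that the effects are alike. Over all genes the median was -0.16, and 0.08 with library totals alone.

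Of 7 genes of receptors of the members, 5 were tested and 3 were called, all higher in microglia, as were 28.2% of all genes. Ccr1, Ccr2, Ccr3 and Cxcr2 passed the filter through microglia alone, so a difference was built into their selection. Ccr1, a receptor of Ccl3 and Ccl5, had a log2 difference of 4.64 between the cell types (SE 0.74, edgeR adjusted p = 6.71e-05). Ccr3 had 35 counts in 4 microglia libraries and 0 counts in astrocytes, at least 12.4-fold higher in microglia against a floor of 3 counts over the 6 libraries (edgeR adjusted p = 0.0207). Ccr2, the receptor of the monocyte attractants and a marker of monocytes, was low, at a mean of 1.81 CPM in WT microglia and 0.123 CPM in WT astrocytes, and was not called (log2 2.60, edgeR adjusted p = 0.0668). Cxcr2, the neutrophil receptor of Cxcl1 and Cxcl2, was not called either (1.57, edgeR adjusted p = 0.324). Cxcr3, the receptor of Cxcl10, had 18 counts and Cxcr6, the receptor of Cxcl16, 9 counts, all in microglia, and neither passed the filter.

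Among 16 other chemokine receptors 5 were tested and all 5 were called, against 64.6% of all genes in either direction. Cx3cr1, the fractalkine receptor of microglia (log2 5.38, SE 0.32, edgeR adjusted p = 2.53e-09), Ccr6 (5.31, SE 1.52, through the filter by microglia alone) and the atypical receptor Ccrl2 (5.31, SE 0.57) were higher in microglia. Cxcr4 (-4.17, SE 0.59, edgeR adjusted p = 2.18e-05) and Ackr3 (-3.08, SE 0.58, edgeR adjusted p = 3.19e-04), which share the ligand Cxcl12, were lower in microglia than in astrocytes. No receptor of either list was called between genotypes.

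Chemokines outside the 10 divided between the cell types. Of 28 such genes, 15 were tested and 14 were called, 7 higher in microglia and 7 higher in astrocytes, where 64.6% of all genes were called in either direction, and 8 of the 28 had no count in any library. Ccl24 (5.24, SE 1.61), Ccl8 (4.45, SE 1.43), Ccl9 (4.30, SE 0.71) and Cxcl13 (3.24, SE 1.15) had the largest log2 differences towards microglia. Of those called, Ccl24, Ccl8, Cxcl13 and Cxcl9 passed the filter through microglia alone and Ccl28 through astrocytes alone, so a difference was built into their selection. Towards astrocytes the largest was Cxcl14, at 268 ± 50.1 CPM in WT astrocytes, 281 ± 42.3 CPM in KO astrocytes and 5.16 and 3.19 CPM in WT and KO microglia (log2 -6.36, SE 0.33, edgeR adjusted p = 7.69e-10). Cxcl5, a neutrophil attractant, had 69 counts in 5 astrocyte libraries and 0 counts in microglia, at least 21.7-fold higher in astrocytes (edgeR adjusted p = 0.00547), and it passed the filter through astrocytes alone. Cx3cl1, the fractalkine ligand of Cx3cr1 (-3.89, SE 0.50), and Ccl27a (-3.21, SE 0.46) were also lower in microglia. Between genotypes none of the 28 was called. The smallest unadjusted p values were those of Ccl9 (log2 0.61, edgeR adjusted p = 0.717) and Cxcl12 (-1.23, edgeR adjusted p = 0.759) in microglia, and of Cxcl5 (2.41) and Ccl28 (2.12) in astrocytes, both with an edgeR adjusted p = 0.999.

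**Figure D5:**
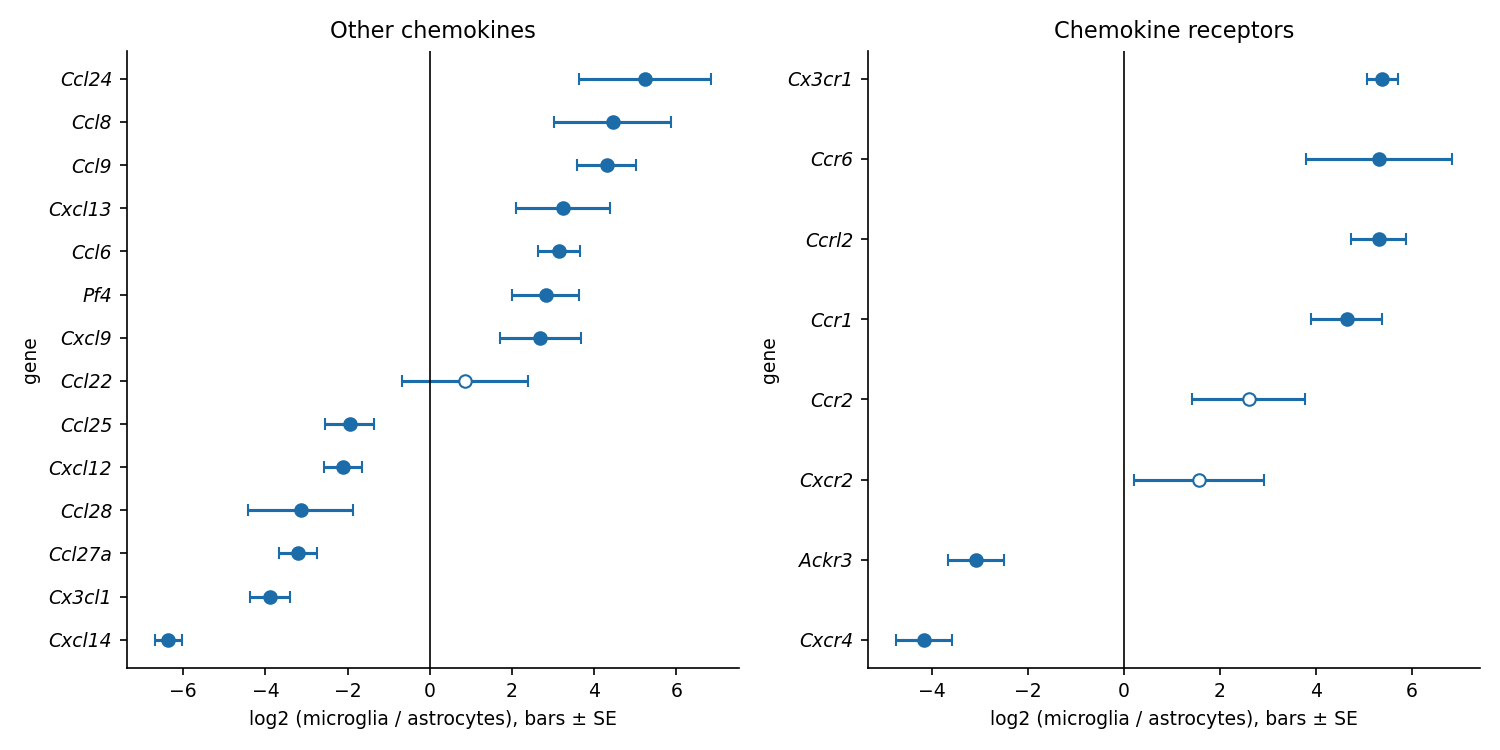
Log2 difference of microglia against astrocytes with its SE for the other chemokines (left) and 8 chemokine receptors (right); filled symbols were called and open symbols were not. Cxcl14 (-6.36) lies farthest towards astrocytes and Cx3cr1 (5.38) farthest towards microglia among the receptors drawn; Cxcl5 and Ccr3, with 0 counts in 1 cell type, are not drawn.

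The list of genes that sense LPS and carry the signal to the nucleus held 24 genes. All 24 were tested and 22 were called, 21 higher in microglia and 1, Lbp, lower, against 28.2% of all genes called higher and 64.6% in either direction. The median log2 difference was 2.17, and -0.19 over all genes. Tlr4, the LPS receptor, differed by 3.92 (SE 0.20, edgeR adjusted p = 5.25e-10) and its co-receptor Cd14 by 4.81 (SE 0.57, edgeR adjusted p = 3.40e-06). The NF-κB inhibitor gene Nfkbia differed by 3.52 (SE 0.31). Irf7, an interferon regulatory factor, had a smaller difference between cell types of 1.39 (SE 0.26, edgeR adjusted p = 3.14e-04). None of the 24 was called between genotypes. In microglia 1 stood at an unadjusted p under 0.05, Nfkb2, with a log2 difference of -0.67 (edgeR adjusted p = 0.587). Of all genes 7.42% did so.

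Proteases and proteoglycans that process or bind chemokines numbered 7, of which 6 were called, 4 higher and 2 lower in microglia, beside 64.6% of all genes called in either direction. Among those called, Mmp9 passed the filter through microglia alone and Dpp4 through astrocytes alone, so a difference was built into their selection. The sheddases Adam10 (log2 1.93, SE 0.16) and Adam17 (2.40, SE 0.18), which release membrane-bound chemokines, were both higher in microglia. None was called between genotypes. Sdc4 in microglia stood at an unadjusted p under 0.05 (log2 -0.76, edgeR adjusted p = 0.542), as did 7.42% of all genes.

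Immediate early genes, which enzymatic dissociation of tissue is known to induce, were all higher in microglia: 12 of 12 were called, against 28.2% of all genes, with a median log2 difference of 4.23. Fos differed by 4.35 (SE 0.27) and Jun by 4.13 (SE 0.25). Their summed CPM was 14262, 7416 and 8636 in WT and 11851, 13142 and 11794 in KO microglia, and 351.5 to 625.6 in astrocytes. Between genotypes 0 of the 12 were called, as was the case for 0% of all genes in each cell type. In KO microglia 11 of 12 had positive log2 differences, against 49.9% of all genes. Dusp1 (0.70) and Zfp36 (0.58) stood at an unadjusted p under 0.05 there (edgeR adjusted p = 0.587 each), as did 7.42% of all genes. These sums moved with cell type as the chemokine levels did, and their part in the chemokine levels was not tested.

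Ccl3 was the member with the highest mean CPM in both cell types, and the genes with the most similar pattern over the 6 libraries were found by the mean absolute difference of log2(CPM + 1) deviations. In microglia these were Rida (0.0303), Cycs (0.0797) and Flt3l (0.0916) among 12041 genes, where the deviations of Ccl3 itself averaged 0.326. In astrocytes they were Dpm3 (0.215), Rps29 (0.220) and Polr2l (0.231) among 13359 genes, where those of Ccl3 averaged 0.620. With 6 libraries and this many genes, close patterns are a description only.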

How the data were processed

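For each cell type the authors deposited a table of estimated counts (expected counts) by gene symbol, not normalized. The submitters' processing notes name STAR 2.7.10b, RSEM 1.3.3, limma and the build GRCm39, without roles. Per the labels' protocols, full-length cDNA was made by SMART-Seq HT and turned into Nextera libraries. No molecular identifiers are named, so floors cover counting error only.

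Estimated counts were rounded, and CPM were computed per library total. Of 120 member values 0 were not whole (tolerance 0.001). The main test was edgeR 4.0.16 (R 4.3.3; quasi-likelihood, TMM factors, filterByExpr with minimum count 10, Benjamini-Hochberg over all genes tested, called under 0.05). Genotypes were compared within the 6 libraries of a cell type, cell types and the interaction in 1 fit of 12. SE is the log2 difference over the root of F, and intervals use its degrees of freedom. Alternatives used DESeq2 1.42.0, limma 3.58.1 and other scalings, filters, blocks and left-out libraries. The code was tested on data simulated with a common dispersion for all genes of a comparison. Between genotypes it recovered 67.0% of 4-fold and 2.06% of 2-fold changes in microglia, and 20.9% and 1.03% in astrocytes. For the difference between genotype effects it recovered 0% of both. A gene that was not called between genotypes is thus not shown to be unchanged.

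Cell types are paired by animal number, and the deviations of the paired libraries correlated at 0.02, 0.14 and 0.18 in WT and 0.10, -0.01 and 0.15 in KO animals. Groups hold separate animals by their numbers, and libraries within a group differed beyond sampling noise (chi-square per degree of freedom 29.8 to 117). The members and lists were chosen with earlier results of these data known. The genes named are all members, Kpna4, the receptors of the members, and from the other lists those with the largest differences between cell types, the smallest p between genotypes or a fixed name. Nfkb2, Lbp, Sdc4, Dusp1, Zfp36, Sall1, Siglech, Gzma, Klrb1c, Cd3d, Mmp9, Dpp4 and Cxcl9 were named after their values were seen. A few genes that this rule names are not reported here.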

Additional observations from a re-analysis of the deposited data

How the results depend on the processing

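The chemokine calls held under all alternatives: 0 in microglia and in astrocytes between genotypes, 0 for the difference between the genotype effects, and the same 8 between cell types, with Cxcl2 as the ninth in 3 of 13. Over all genes the calls between genotypes moved. In microglia, where edgeR called 0, DESeq2 called 41, edgeR without a filter 121, the replicate number as a block 30, the fit of all 12 libraries 41, and the fits without 1 replicate 0 to 2 (2 without KO replicate 2). In astrocytes DESeq2 called 4, no filter 17, the replicate number as a block 0, and the fits without 1 replicate 0 to 1 (1 without WT replicate 1). For the difference between genotype effects, DESeq2 called 62, no filter 160, the animal as a block 0, and the fits without 1 replicate 0 to 6 (6 without KO replicate 3, 1 without WT replicate 2). Between cell types the animal as a block called 10400 genes. The labels give no pairing of WT with KO animals by replicate number. Deviations of same-numbered libraries correlated at 0.11, 0.06 and 0.29 in microglia and at -0.02, 0.04 and 0.36 in astrocytes. The values for replicate 3 were above those of all same-animal pairs, which reached 0.18. Whether the replicate 3 libraries share a feature was not tested.

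The log2 difference changed sign in some genes whose difference was not called. Over the fits without 1 replicate, it ranged in microglia from -0.12 to 0.59 for Ccl3 and from -1.12 to 0.17 for Cxcl2; in astrocytes from -1.01 to 0.49 for Ccl3 and from -1.20 to 0.66 for Cxcl16; and for the difference between genotype effects from -0.14 to 1.60 for Ccl3, from -1.34 to 0.09 for Ccl12, from -0.86 to 0.26 for Cxcl2 and from -0.84 to 0.38 for Cxcl16. In microglia the changes were in Ccl3 (-0.12 without KO replicate 1) and Cxcl2 (0.17 without WT replicate 1). In astrocytes they were in Ccl3 (0.49) and Cxcl16 (0.66) without WT replicate 1, Cxcl16 with the replicate number as a block (0.19), and Ccl5 (-0.32) and Cxcl16 (0.64) with voom quality weights. For the difference between genotype effects they were in Ccl3 (-0.14 without WT replicate 1), Ccl12 (0.04 without WT replicate 2, 0.09 without KO replicate 1, 0.02 without KO replicate 2), Cxcl2 (0.26 without KO replicate 1) and Cxcl16 (0.04 with library totals only, 0.35 without WT replicate 2, 0.23 without KO replicate 1, 0.38 without KO replicate 3). The cause was not tested. Of 40 group mean levels, 39 moved by less than 1 SD with TMM-scaled totals, and Ccl2 in WT microglia moved to 85.5 CPM. Depth limits Cxcl1, Cxcl2 and Ccl7 in astrocytes, which rest on few counts.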
